A study of Mus musculus and Homo sapiens with 9 samples.

Results

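The sites described here are the S9.6 peaks of Mcm8 WT mouse embryonic fibroblasts (MEFs) that had no counterpart in Mcm8 KO MEFs and that lay on a shControl MEF peak with no counterpart in shDdx5 MEFs. They were selected on measured values, namely the presence or absence of a called peak in these 4 lists, with at least 1 bp in common counting as presence. The rule chose 241 of the 6481 WT peaks, or 3.72%. Of the WT peaks, 4893 had no KO peak (75.5%), and the sites were 4.93% of these. Of the 12259 shControl peaks, 9883 had no shDdx5 peak (80.6%). Absence of a peak was therefore the usual outcome in each comparison, and nothing is read from the number of sites. Each site had 1 such shControl peak, and 241 different shControl peaks were paired with the 241 sites.

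The study asked how loss of the helicase MCM8 and of the RNA helicase DDX5 alters R-loops, and mapped them by CUT&Tag, in which a transposase tethered to an antibody inserts sequencing adapters into nearby DNA. S9.6, the antibody used, recognises RNA-DNA hybrids. The MEF groups were labelled Mcm8 wildtype (WT), Mcm8 knockout (KO), control (shControl) and Ddx5 knockdown (shDdx5), all with S9.6, and wildtype with no primary antibody. The groups of HEK293, a human embryonic kidney line, were S9.6 with or without a transfected RNH1 plasmid, anti-FLAG in cells given a FLAG-MCM8 plasmid, and mouse IgG. Each of the 9 groups held 1 library, so a difference between lists compares libraries and not conditions. The knockout mice lacked exon 7 of Mcm8, the MEFs came from embryos and had been immortalised with SV40 lentivirus, and Ddx5 was knocked down with an adenoviral short hairpin RNA. Whether the knockdown cells share an origin with the Mcm8 WT cells is not stated in the labels. Peak names in the deposited shControl list begin with shD1 and those in the shDdx5 list with shD2, and groups were taken from the labels.

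As background, an R-loop forms when a nascent RNA pairs with its template DNA strand and leaves the other strand single. R-loops are common at CpG-rich promoters, where a G-rich displaced strand favours them. Helicases such as DDX5 and DHX9, and the nuclease RNase H1, can remove them, and R-loops that persist can obstruct replication forks. MCM8 acts with MCM9 in homologous recombination and at replication forks.

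Sequences around the WT summits of sites on which the description turns are shown first, because promoter sites and sites away from promoters differ in base composition. They were read from the plus strand of the RefSeq GRCm38 assembly (mm10), 5′ to 3′, with runs of 3 or more G or C in capitals. The Hdac1, Chd8 and Rcl1 promoters are given with 50 bp on either side of the summit, and the Cdkn2c promoter with 14 bp because the longer window meets an annotated UTR.
Hdac1, chr4:129542804-129542904: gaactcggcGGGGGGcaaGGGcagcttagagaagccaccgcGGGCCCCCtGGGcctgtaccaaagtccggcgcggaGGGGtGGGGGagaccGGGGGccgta
Chd8, chr14:52244850-52244950: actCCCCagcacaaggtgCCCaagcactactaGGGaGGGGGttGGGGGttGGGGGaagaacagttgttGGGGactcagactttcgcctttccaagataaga
Rcl1, chr19:29101131-29101231: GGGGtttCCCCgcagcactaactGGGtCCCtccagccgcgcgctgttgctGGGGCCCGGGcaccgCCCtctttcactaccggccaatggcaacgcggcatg
Cdkn2c, chr4:109667106-109667134: gagccGGGcagctccaCCCtcctcggcgc

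On the plus strand, the Hdac1 window held 7 runs of G and 1 of C, and the Chd8 window 5 runs of G and 2 of C. Both genes lie on the minus strand, so on their coding strands these windows held more runs of C than of G.

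The following windows from introns and intergenic DNA show a different kind of sequence, with unbroken runs of at least 5 TG units, or CA on the other strand, in capitals. The Ank3 and Ptprb sites are intronic, and the third lay 62894 bp from its nearest transcription start site (TSS), that of Gm48744. Most sites away from promoters were not of this kind, since 30 of 161 held such a run. The sites in Zfp286 and near 7530414M10Rik held none within 100 bp on either side of the WT summit. Their GC content there was 67.7% and 55.2%.
Ank3, chr10:69667214-69667314: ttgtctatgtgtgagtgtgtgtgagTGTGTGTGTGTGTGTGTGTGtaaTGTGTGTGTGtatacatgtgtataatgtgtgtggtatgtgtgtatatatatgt
Ptprb, chr10:116278211-116278311: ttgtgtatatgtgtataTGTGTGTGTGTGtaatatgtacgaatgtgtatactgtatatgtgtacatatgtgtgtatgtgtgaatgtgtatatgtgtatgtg
Gm48744, chr10:9161786-9161886: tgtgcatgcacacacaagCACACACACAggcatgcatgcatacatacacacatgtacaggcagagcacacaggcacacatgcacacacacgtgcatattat

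By the values that chose them, the sites were of about the strength of the WT list at large and weaker than the peaks called in all 4 S9.6 lists. MACS2 gives each peak a fold over the local background at its summit with a Poisson p and an adjusted q. In the WT list the sites ranged from 2.48-fold to 5.51-fold with a median of 3.56, against a median of 4.19 for the 815 WT peaks present in all 4 S9.6 lists and 3.45 for the other WT-only peaks. Median −log10 q was 1.06 (range 0.191 to 4.41) for the sites, 2.53 for the peaks in all 4 lists, 0.773 for the other WT-only peaks and 0.967 for all WT peaks. The lowest called pileup in the WT list was 7 fragments. The number of overlapping fragments at a summit, solved from the fold and the p, was 7 to 21 in WT with a median of 10. In the shControl list the fold ran from 2.59 to 5.81 with a median of 3.54, and the fragments at the summit from 6 to 26 with a median of 9. In WT, 72 sites (29.9%) had a q no higher than 0.05, in shControl 84 did (34.9%), and 27 did in both (11.2%).

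The depth of the 4 S9.6 libraries, as recovered from their peaks, lay between 5729 fragments per Mb in KO and 7001 in shDdx5, with 6490 in WT and 6822 in shControl. The no-antibody library was much shallower, at 720 fragments per Mb. These depths take the shortest peak of a list as its fragment length and are relative. Of 12 fibroblast genes looked up as cell type markers, 3 had a promoter peak in WT and in KO, 2 in shControl and 4 in shDdx5, with Vim in all of these lists, and of 10 genes of other cell types 0 or 1 had one in each list. Peaks do not measure expression.

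**Figure D1:**
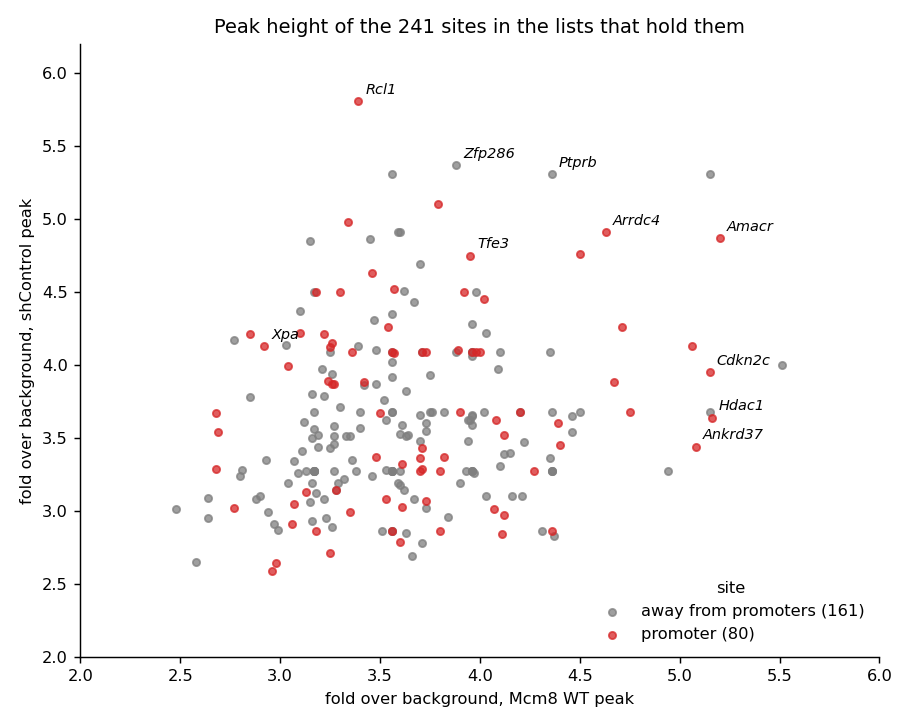
Fold over background of each of the 241 sites in its Mcm8 WT peak (x axis) and in its shControl peak (y axis), with sites at promoters in red and the others in grey. Amacr stands out in both lists, whereas Hdac1, Ankrd37 and Cdkn2c were high in WT and Rcl1 in shControl.

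Chromatin regulators gave 3 promoter sites. Hdac1 (chr4:129542500-129543064), which encodes a histone deacetylase, had the highest −log10 q of all sites in WT, 4.41, at 5.16-fold, and a shControl peak of 3.64-fold with a −log10 q of 1.17. The midpoint of its WT peak lay 69 bp from the TSS. A shDdx5 peak lay 91 bp from the Hdac1 shControl peak, whereas the nearest KO peak was 36459 bp from the WT peak. Chd8, a chromodomain helicase gene, was at 3.70-fold in WT and 3.36-fold in shControl, and neither value reached a q of 0.05 (−log10 q of 1.05 and 0.724). Smarcc1, a gene for a SWI/SNF subunit, was likewise weak, at 3.80-fold in WT and 3.27-fold in shControl.

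The cell cycle and repair lists gave 1 promoter site each. Cdkn2c (chr4:109666879-109667171), a cyclin-dependent kinase inhibitor, was at 5.15-fold in WT (−log10 q of 3.54) and 3.95-fold in shControl (1.43), and its nearest KO peak was 1166 bp away. Xpa, a nucleotide excision repair gene, had a stronger value in shControl (4.13-fold, −log10 q of 2.02) than in WT (2.92-fold, 0.410). Within 100 bp on either side of its WT summit the GC content was 78.1%.

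Other promoter sites were among the 10 highest by q in either list. Amacr, an enzyme of branched-chain fatty acid breakdown, was at 5.20-fold in WT and 4.87-fold in shControl (−log10 q of 3.60 and 2.91). Arrdc4, an arrestin-domain gene that responds to glucose, was at 4.63-fold and 4.91-fold (3.31 and 2.72), with the nearest KO peak 359228 bp and the nearest shDdx5 peak 797286 bp from its WT peak. Amacr and Arrdc4 passed a q of 0.05 in both lists. Ankrd37, a hypoxia-responsive gene, was at 5.08-fold in WT but did not reach that q in shControl (3.44-fold, 0.804). AU022252 was at 5.06-fold and 4.13-fold (3.97 and 2.02). The highest shControl value of any site was at Rcl1, a gene for ribosomal RNA processing, with 5.81-fold and a −log10 q of 5.06, but only 27 bp of its WT peak (3.39-fold, 0.853) overlapped it. Fam118a and Tfe3, a transcription factor gene of lysosome biogenesis on chromosome X, were also among the 10 strongest in shControl, at 4.98-fold and 4.75-fold.

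Away from promoters, the strongest WT site was intergenic on chromosome 15 (chr15:83204318-83204829), 28129 bp from the TSS of 7530414M10Rik, at 5.51-fold with a −log10 q of 4.05, and with a −log10 q of 1.40 in shControl. An intron of Prkg1, a cGMP-dependent kinase gene, held a site at 4.94-fold in WT and 3.27-fold in shControl. Ptprb, an endothelial phosphatase gene, held one in an intron at 4.36-fold and 5.31-fold, and Zfp286 one at 3.88-fold and 5.37-fold. Palld, a gene for an actin-associated protein, held 2 intronic sites 14365 bp apart, the closest pair of sites in the genome. Ttf1, which encodes a factor that ends transcription by RNA polymerase I, had a site in a coding exon, at 3.42-fold in WT and 3.86-fold in shControl. Sites within the receptor gene Tgfbr2 and the Wnt effector gene Tcf7l2 were in introns and did not reach a q of 0.05 in WT.

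Across 10 gene lists (replication, repair, cell cycle, R-loop resolution, chromatin, RNA processing, translation, signalling, matrix and immediate-early genes), 5 genes had a site at a TSS. The lists on replication (48 annotated genes), RNA processing (78) and R-loop resolution (38) had a WT peak at the TSS of 10, 27 and 7 genes, and a site at none. Chromatin regulators had a WT peak at 25 of 75 genes and a site at 3. Over all annotated genes, 3004 had a WT promoter peak and 96 a site.

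Few sites had a called peak close by in the depleted cells. Of the 241 sites, 12 (4.98%, 95% Wilson interval 2.87 to 8.50) had a KO peak within 1000 bp of the WT peak, and 191 of 4652 other WT-only peaks did (4.11%). For 17 sites (7.05%) a shDdx5 peak lay within 1000 bp of the shControl peak. Median distances were 36348 bp to the nearest KO peak and 28879 bp to the nearest shDdx5 peak. With 10000 bp as the limit, 161 sites were clear of both. The rule excluded overlap, and of these values only the KO share within 1000 bp was also counted in other peaks. Nothing is therefore read from these distances as a trait of the sites. Intervals here and below cover counting error only, since peaks of 1 library are not replicates.

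Just inside the rule, the WT peaks nearest to a KO peak were those beside Hrh4 (92 bp), at the Fez2 promoter (152 bp) and beside Cwc22 (215 bp), and the shControl peaks nearest to a shDdx5 peak were those at Rabep2 (27 bp), in Ifi202b (56 bp) and at Zfp513 (58 bp). Just outside, peaks near Lta4h and Smpd2 were left out for 2 bp shared with a KO peak and with a shDdx5 peak. The WT and shControl peaks of the Med10 site had only 3 bp in common. In 6 sites, those at Rabep2, in Ifi202b and at Zfp513 among them, the WT peak itself overlapped a shDdx5 peak. In 3, those beside Hrh4 and at Fez2 among them, the shControl peak overlapped a KO peak. In 232 sites neither was the case. Summits in WT and shControl were a median of 137 bp apart, and for 162 sites (67.2%) within 200 bp.

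**Figure D2:**
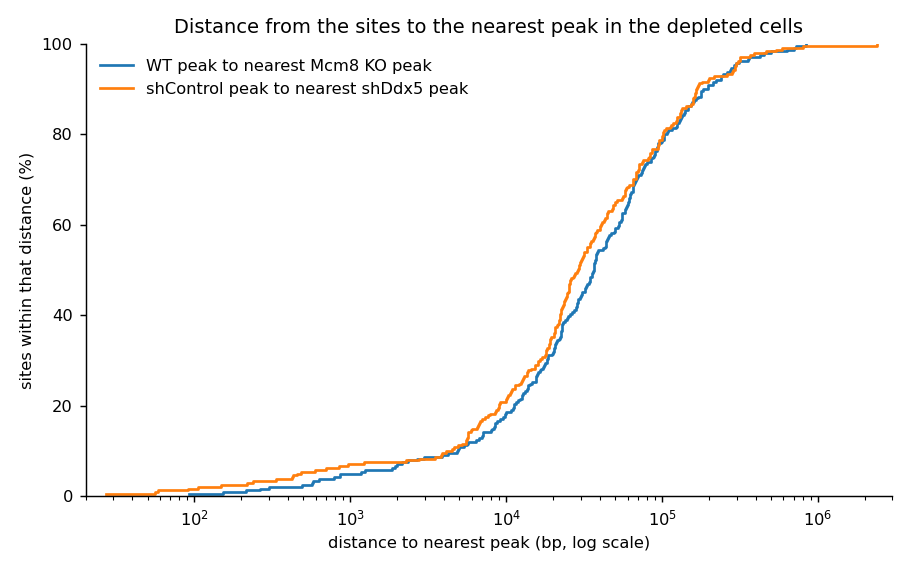
Cumulative share of the 241 sites (y axis, percent) against the distance in bp, on a log scale, from the WT peak to the nearest Mcm8 KO peak and from the shControl peak to the nearest shDdx5 peak. Both curves stay low up to 1000 bp, at 4.98% and 7.05%, and the medians lie at 36348 and 28879 bp. Overlap was excluded by the rule, and no curve for other peaks is shown.

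Among WT peaks with a shControl peak, those absent in KO more often lay on one absent in shDdx5. Of all 4893 WT-only peaks, 4396 had no shControl peak and are left out, and the sites were 4.93%. The contrast therefore does not cover the whole WT list, and no direction is read for that list. The shares below use the values that define the sites and are given as a description. Of 497 WT-only peaks with a shControl peak, 241 (48.5%) lay on one without a shDdx5 peak, against 88 of 898 (9.80%) of the WT peaks that were also called in KO. Weaker peaks were missing more often in both respects. In 4 bins of WT −log10 p, the shares fell from 58.5% to 18.8% without a KO peak and from 16.2% to 4.10% with one, with 6 of 32 and 13 of 317 peaks in the strongest bin.

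**Figure D3:**
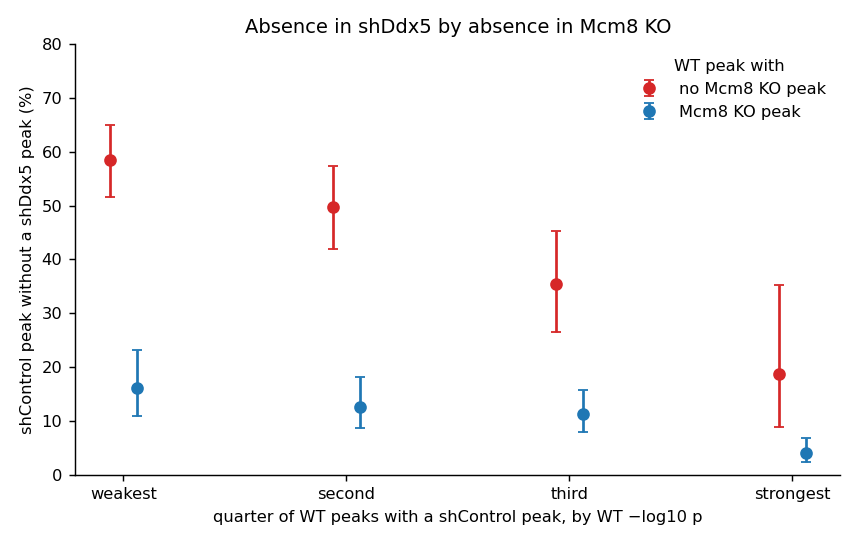
Share of WT peaks with a shControl peak whose shControl peak had no shDdx5 peak (y axis, percent, with 95% Wilson intervals for counting error), for WT peaks without (red) and with (blue) a Mcm8 KO peak, in 4 bins of WT −log10 p. The red points fall from 58.5% to 18.8% and stay above the blue points, which fall from 16.2% to 4.10%. The peaks counted in the red shares are the sites themselves, so the shares use the calls that define the sites and are a description only. The bins were not matched for shControl peak strength or for position.

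The overlap of peaks called on 1 side only (WT-only, KO-only, shControl-only, shDdx5-only) was counted for the other directions as well. WT-only peaks overlapped a shDdx5-only peak in 461 of 4893 cases (9.42%), and KO-only peaks overlapped a shControl-only peak in 343 of 8021 (4.28%) and a shDdx5-only peak in 838 of 8021 (10.4%). The sites made up 4.93% of WT-only and 2.44% of shControl-only peaks, and the largest of these overlaps took 10.4% of KO-only and 8.92% of shDdx5-only peaks.

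Position and sequence were not used by the rule. A promoter peak is one whose midpoint lies within 1 kb of a TSS. Of the sites, 80 were at a promoter (33.2%, 27.6 to 39.4), 85 in introns (35.3%), 67 intergenic (27.8%), 6 in coding exons, 2 in UTRs and 1 in a noncoding exon. Other WT-only peaks were at promoters in 24.8% of cases, and the difference was 8.35 percentage points (95% Newcombe interval 2.57 to 14.6). Of these 4652 other peaks, 4396 had no shControl peak, whereas every site had one by the rule. Here and below, a contrast with them is therefore mostly one of peaks called in 2 lists with peaks not called in shControl. This difference did not exceed counting error once WT-only peaks were split at their median −log10 p (8.01 points, −0.187 to 17.9, among the weaker and 6.26, −1.35 to 14.5, among the stronger).

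The contrast was much larger with WT-only peaks whose shControl peak was kept in shDdx5. Of these 256 peaks, 173 were at a promoter (67.6%). The sites less these peaks gave −34.4 points (−42.2 to −25.8). Of the 815 peaks in all 4 lists, 86.1% were at promoters. Sites were more often intronic (17.3 points, 9.57 to 24.8) and intergenic (15.3 points, 8.29 to 22.2) than the kept peaks. The KO-only peaks that overlapped a shDdx5-only peak were at promoters in 69.0% of 838 cases. In whole lists, promoters took 37.1% of WT, 36.2% of KO, 27.2% of shControl and 43.0% of shDdx5 peaks, so the shControl and shDdx5 lists differed in this respect at large, and the part of that in the low share of the sites was not tested.

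GC-rich sequence was about as frequent in the sites as in the WT list at large, more frequent than in the other WT-only peaks and less frequent than in the kept peaks. GC content within 100 bp on either side of the WT summit was 60% or more in 62 sites (25.7%), in 25.1% of all WT peaks, in 14.7% of the other WT-only peaks, in 56.6% of the kept peaks and in 66% of the peaks in all 4 lists. The sites exceeded the other WT-only peaks by 11.1 points (5.85 to 17.0). Within promoters, 63.7% of the sites were GC-rich, against 59.6% of all WT peaks, 47.5% of the other WT-only peaks (16.3 points, 4.95 to 26.4) and 78% of the kept peaks (−14.3 points, −26.5 to −2.49). Away from promoters the difference from the other WT-only peaks, 3.03 points, was within counting error (−0.025 to 8.05). CpG-dense windows, with this GC content and a CpG frequency of at least 0.6 of that expected, made up 18.7% of the sites, 19.8% of all WT peaks and 10.4% of the other WT-only peaks. On the coding strand of the gene, promoter sites had more G than C in 55 of 80 windows (68.8%), against 55.6% in other WT-only promoter peaks (13.1 points, 1.94 to 22.7) and 59.3% in those of all 4 lists (9.49 points, −1.90 to 19.3). A pattern of 4 runs of at least 3 G with up to 7 bases between, on either strand, as G-quadruplexes need, was in 25% of promoter sites and 14.2% of other WT-only promoter peaks (10.8 points, 2.35 to 21.5). It did not differ by more than counting error from the kept promoter peaks (17.3%, a difference of 7.66 points, −2.70 to 19.2) or those of all 4 lists (21.7%, 3.35 points, −5.45 to 14.2). The nearest TSS was that of a protein-coding gene for 69 of the 80. The summit lay downstream of the TSS in 43 of the 80 (53.8%), against 38.7% in the kept promoter peaks (15 points, 1.88 to 27.6) and 48.8% in the other WT-only ones (4.96, −6.26 to 15.8).

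Short motifs were searched on both strands of the same windows. The GC box GGGCGG, the SP1 site, was in 44 sites (18.3%) and in 20.8% of all WT peaks. AP-1 sites, TGANTCA, were in 18 sites (7.47%) and in 7.95% of all WT peaks, and the CCAAT box in 60 (24.9%) and 23.6%. CCGGAAG, bound by ETS factors, was in 4 sites (1.66%) against 2.70%, CACGTG, an E-box, in 14 (5.81%) against 4.10%, GGAATG, bound by TEAD factors, in 23 (9.54%) against 9.95%, and the CRE TGACGTCA in 0 against 0.401%. The GC box was 6.82 points more frequent in the sites than in the other WT-only peaks (2.35 to 12.3). That difference was within counting error at promoters (5.66, −4.76 to 16.9) and beyond it elsewhere (3.59, 0.378 to 8.75). For the remaining motifs, the sites and the other WT-only peaks did not differ by more than counting error. Against the kept peaks, the GC box was less frequent in the sites (−26.3 points, −33.8 to −18.3), also within promoters (−20.7, −32.9 to −7.45). CCGGAAG was less frequent as well (−3.42, −6.98 to −0.139), and the others were within counting error.

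Sites away from promoters held TG repeats more often than the other WT-only peaks there. A run of 5 TG units, or CA on the other strand, was searched for after the printed windows had been seen. It was in 30 of the 161 sites outside promoters (18.6%, 13.4 to 25.4) and in 252 of 3496 other WT-only peaks there (7.21%), a difference of 11.4 points (6.09 to 18.2). In the kept peaks outside promoters it was in 9 of 83 (10.8%), and the difference of 7.79 points was within counting error (−2.20 to 16.2). The difference from the other WT-only peaks was present among the weaker (8.78 points, 2.17 to 19.1) and the stronger (12.7, 5.40 to 22.2) WT-only peaks. It shrank with longer repeats, to 3.70 points (0.323 to 8.98) for 12 bp and 0.396 (−1.21 to 4.15) for 20 bp. The other overlaps of peaks called on 1 side only also held such repeats outside promoters, in 12.4%, 12.1% and 11.2% of the WT-only with shDdx5-only, KO-only with shControl-only and KO-only with shDdx5-only peaks. The sites differed by more than counting error from the last of these (7.48 points, 0.620 to 15.0) and not from the others. In the no-antibody list, 14.8% of peaks outside promoters held the repeat, against 7.01% to 9.80% in the S9.6 lists. At least 50% of the window was repeat-masked in 33 of the 161 sites (20.5%) and in 14.2% of the other WT-only peaks there (6.34 points, 0.697 to 13.3), but in 22.9% of the kept peaks there (−2.39 points, −13.9 to 7.95). The part of repeat sequence in the calling of these sites was not tested.

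**Figure D4:**
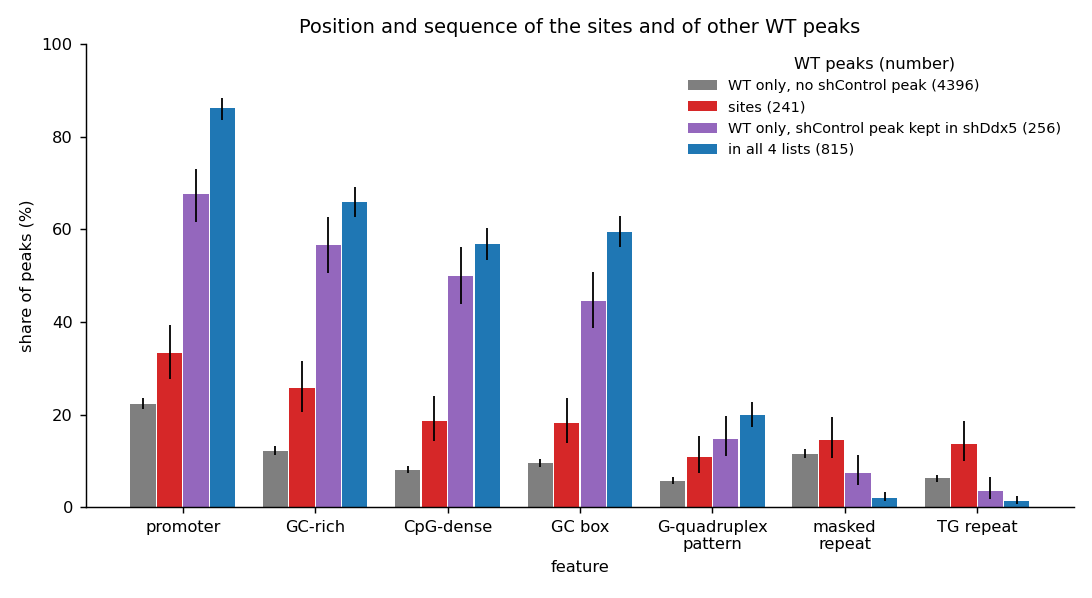
Share of peaks (y axis, percent, with 95% Wilson intervals for counting error) with each position or sequence feature (x axis), for the sites in red, WT-only peaks without a shControl peak, WT-only peaks whose shControl peak was kept in shDdx5, and peaks in all 4 lists. The sites lie between the first and the other groups for promoter (33.2%), GC-rich (25.7%), CpG-dense (18.7%) and GC box (18.3%), and above all of them for TG repeat (13.7%). The bars pool promoter and other peaks, and outside promoters the TG repeat share of the sites (18.6%) exceeded that of the kept peaks (10.8%) by no more than counting error.

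No site overlapped a no-antibody peak, 0 of 241, which allows a share of up to 1.24%, taken as 3 counts of the total (the 95% Wilson interval reaches 1.57%). Other WT-only peaks did in 21 of 4652 cases (0.451%), and the difference was within counting error (−0.451 points, −0.689 to 1.13). Of the peaks in all 4 lists, 5.52% did. The no-antibody library was the shallowest, so background at these sites could be detected only at that depth.

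By chromosome, the sites were most numerous on 11 (20), 4 (19) and 5 (18), and made up, across autosomes, between 3.18% (chromosome 1) and 7.32% (chromosome 13) of WT-only peaks, with 4.93% overall. There were 2 on X among 27 WT-only peaks and 0 on Y among 3.

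Promoter genes of the sites were followed into HEK293 cells by gene symbol, using lists that the rule did not use. The sites had 78 protein-coding genes within 1 kb, of which 71 had a human gene of the same symbol. A FLAG-MCM8 promoter peak was present at 21 of these (29.6%, 20.2 to 41.0), an S9.6 peak at 36 (50.7%), a peak in the list labelled RNH1 at 32 (45.1%) and an IgG peak at 7 (9.86%). Over all 15743 matched genes the shares were 13.2%, 33.2%, 27.2% and 6.21%. The genes of all other WT promoter peaks had a FLAG-MCM8 peak in 25.3% of cases (difference 4.23 points, −5.30 to 15.8) and an S9.6 peak in 59.6% (−8.86 points, −20.4 to 2.61), so the site genes did not differ from them by more than counting error. Against the genes of other WT-only promoter peaks (18.3%), the FLAG-MCM8 share was 11.3 points higher (1.63 to 23), and the IgG share was 2.90 points higher (−2.39 to 12.1). Against the genes of the kept promoter peaks (22%), the FLAG-MCM8 difference of 7.53 points was within counting error (−3.84 to 20.2). Against the genes of the peaks in all 4 lists (34%), it was −4.46 points (−14.4 to 7.44), and the S9.6 difference was −23.3 points (−35.1 to −11.6). Among the named sites, Amacr and Cdkn2c had FLAG-MCM8, S9.6 and RNH1 peaks and no IgG peak at the human gene. The same peaks were found for the sites at Ankrd37 and AU022252, which also lay within 1 kb of Lrp2bp and P3h1. Which gene of each pair had the peaks was not separated. Chd8 and Fez2 had IgG, S9.6 and RNH1 peaks, and Fam118a had IgG and S9.6 peaks. Hdac1, Xpa and Smarcc1 had none of the 4.

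**Figure D5:**
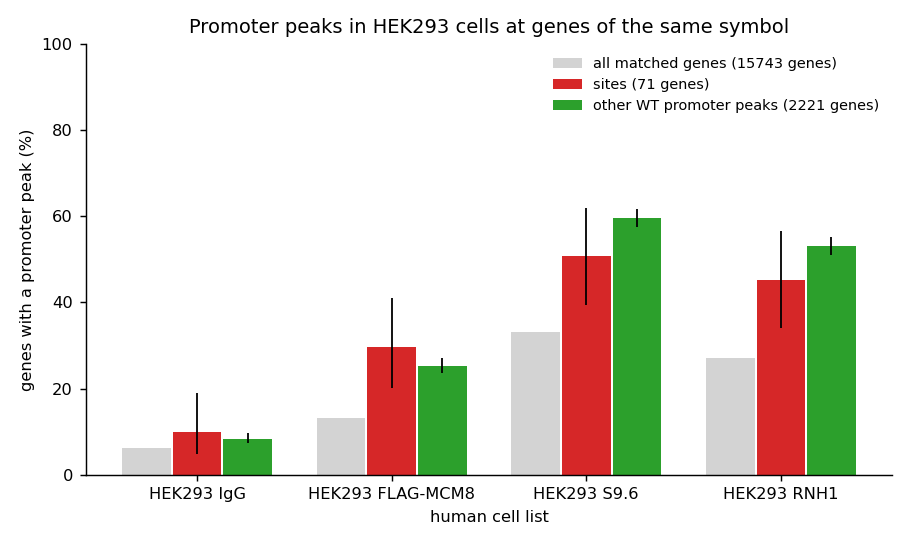
Share of human genes (y axis, percent) with a promoter peak in each HEK293 list (x axis), for all matched genes in grey, genes of the sites in red and genes of the other WT promoter peaks in green, with 95% Wilson intervals for counting error on the last 2. The site genes lie above all matched genes in every list and within counting error of the genes of other WT promoter peaks. For IgG, the interval of the site genes (4.86 to 19) includes the share of all matched genes (6.21%).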

How the data were processed

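CUT&Tag peak lists of 9 libraries, 1 per group, were used. The authors aligned trimmed MEF reads to mm10 and HEK293 reads to hg38 with Bowtie2 (Trimmomatic is also named in the submitters' processing notes) and called peaks per library with MACS2 (2.1.2 per the labels; the study's methods give another version), without the no-antibody library as input. The deposited values per peak are a fold (a ratio) over the local background, the −log10 of a p and of a q, a score derived from the −log10 p, left unused, and the summit offset. They depend on the depth of their own library and were not tested between lists. Read totals were not used here. The pileup at each summit was solved from the fold and p, which succeeded for at least 99.9% of the peaks of each MEF list.

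The members, gene lists, motifs and comparisons were chosen with earlier results of these data known. Peaks sharing at least 1 bp were counted as overlapping. TSSs came from GENCODE M21 (mouse) and 44 (human), with a promoter window of 1 kb. Sequence came from RefSeq's GRCm38.p6, which has the coordinates of mm10, and masked bases are its lower-case bases. With 1 library per group there was no test and no p-value. Shares were given 95% Wilson intervals and differences of shares Newcombe intervals, for counting error only, and they were not adjusted for the 52 features compared with each set. Named sites were the 10 with the highest −log10 q in WT and the 10 in shControl, those at the TSS of a gene of the lists, the 3 nearest to a KO and the 3 nearest to a shDdx5 peak, any with a no-antibody peak, and, at and away from promoters, the 5 farthest from KO and shDdx5 peaks with q of 0.05 or lower in both lists. Others named (Palld, Ttf1, Tgfbr2, Tcf7l2, Med10, Lta4h and Smpd2) were picked after their values were seen. Overlap counting and pileup solving were tested on simulated data. Software was pysam 0.24.0, scipy 1.17.1, pandas 2.3.3, numpy 2.4.6 and matplotlib 3.10.9 under Python 3.11.15. Some sites that this rule names are not reported here.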

Additional observations from a re-analysis of the deposited data

How the results depend on the processing

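No replicates exist, so no library could be left out. The number of sites, 241, fell to 45 with a q of 0.05 or lower and to 31 with a fold of at least 4 in all 4 lists, and lay between 188 and 307 under the other alternatives. The promoter share of the sites was 62.2% with that q, 61.3% with that fold, 39.9% with the same number of strongest peaks from each list, 50.6% when 50% of both peaks had to be in common, and 45.2% with a promoter window of 3 kb, all above the reported interval.

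The excess of promoters over other WT-only peaks was no longer beyond counting error with a fold of at least 4 (16.9 points), with peaks within 1 kb counted as overlapping (3.59), or within the weaker (8.01) and stronger (6.26) WT-only peaks. The deficit against WT-only peaks whose shControl peak was kept in shDdx5 was −9.78 points with a q of 0.05 or lower and −13.1 with a fold of at least 4, with intervals that include 0, and kept its direction and stayed beyond counting error in the other 13 alternatives. The cause of these changes was not tested. A TG repeat of 20 bp gave a difference of 0.396 points. The GC-rich excess stayed beyond counting error in all 14 alternatives, and the no-antibody difference stayed within it in all 9. The splits by −log10 p, the longer repeats and all alternatives for the kept peaks were chosen after the data were seen. Every peak lay on an assembled chromosome, so using all sequences changed nothing.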
